A study of Caenorhabditis elegans with 9 samples.

Results

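The annular furrow collagens are 6 cuticle collagens of Caenorhabditis elegans, encoded by dpy-2, dpy-3, dpy-7, dpy-8, dpy-9 and dpy-10. They were chosen by gene name, and every probe set that the platform annotation gives to exactly 1 of these genes was taken. This gave 6 of the 22625 probe sets on the array, for 5 of the 6 genes: 2 for dpy-2 and 1 each for dpy-3, dpy-7, dpy-8 and dpy-9. No probe set was named for dpy-10. All 6 probe sets passed the filter on low signal, as did 14204 of the 22548 probe sets left after controls. By the gene table for assembly WBcel235, dpy-3, dpy-7 and dpy-8 lie on the X chromosome, dpy-2 and dpy-10 on chromosome II and dpy-9 on chromosome IV.

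The worm's cuticle is a collagen exoskeleton that the epidermis secretes anew before each moult. Its surface carries circumferential annuli separated by furrows, and the furrow collagens mark and are needed for those furrows. Loss of any of them removes the furrows and gives short, stout (dumpy) animals. In such mutants the epidermis also switches on genes for glycerol synthesis, detoxification and antimicrobial peptides. During each moulting cycle transcripts of furrow collagens appear early, well before those of many other collagens. The promoter of dpy-7 is a common driver of epidermal expression, and dpy-10 is a common marker in genome editing of the worm.

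RNA from whole animals was measured on 9 one-colour expression arrays, with 3 biological replicate populations in each of 3 groups. The myo-4 SUMO group was line JS63, which carries His-tagged SUMO-1 under the promoter of myo-4, the body wall muscle myosin gene also called unc-54. The aex-3 SUMO group was line JS62, which carries the same protein driven by the aex-3 promoter, which is active in the nervous system. N2, the laboratory wild type without a transgene, was the control. SUMO-1 is a small protein attached to other proteins to change their activity. All animals were labelled as L1 larvae synchronised by bleaching and fed OP50 bacteria, and each transgene was represented by 1 line. Neither promoter is an epidermal one. In whole animals, fewer cells of a type and less RNA per cell cannot be told apart.

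The array medians ranged between 24.8 and 25.7 for myo-4 SUMO, 23.2 and 24.6 for aex-3 SUMO and 27.6 and 28.6 for N2, an offset that cannot be told apart from the comparisons with N2. Correlations between replicates were 0.986 to 0.988 in myo-4 SUMO, 0.987 to 0.988 in aex-3 SUMO, with 0.962 to 0.977 in N2, and N2 replicate 1 stood apart on the second principal component. The smo-1 probe set, for the worm's own SUMO gene, read 1055, 927 and 887 in myo-4 SUMO, 957, 1078 and 1018 in aex-3 SUMO and 715, 687 and 512 in N2. It was higher by 0.59 in myo-4 SUMO (adjusted p = 0.00318) and by 0.69 in aex-3 SUMO (adjusted p = 0.00117) on the log2 scale. Whether it detects the transgene is unknown.

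All furrow collagen probe sets were lower in aex-3 SUMO than in N2, at 34.8% to 72.7% of the N2 mean. In myo-4 SUMO, dpy-7 and dpy-8 were lower than in N2, and the other 4 probe sets did not pass the test. Signals are linear intensities in the units of the deposited table. They are compared between groups for 1 probe set at a time and not between genes, since probe sets bind with different strength. Fold changes are on the scale of log2(signal + 1.623), adjusted p-values are from limma over all 14204 probe sets, and each mean is given with its SD over 3 arrays. The 3 populations of a group are the labels' biological replicates.

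dpy-8 fell in both transgenic lines, and fell further in aex-3 SUMO. Its probe set 190446_s_at read 66.9, 73.4 and 75.8 in myo-4 SUMO, 40.4, 43.8 and 46.6 in aex-3 SUMO and 103, 113 and 98.6 in N2. The 3 groups did not overlap, with N2 highest and aex-3 SUMO lowest. The mean was 72.1 ± 4.64 in myo-4 SUMO, 43.6 ± 3.13 in aex-3 SUMO and 105 ± 7.41 in N2. The log2 change from N2 was -0.53 ± 0.12 (SE) in myo-4 SUMO (adjusted p = 0.00399) and -1.24 ± 0.12 in aex-3 SUMO (adjusted p = 2.83e-05).

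dpy-7 also fell in both lines. Its probe set 192146_s_at read 70.3, 83.3 and 82.0 in myo-4 SUMO, 66.6, 64.4 and 61.6 in aex-3 SUMO and 125, 129 and 126 in N2. All 6 transgenic arrays lay far below the 3 N2 arrays, and the lowest myo-4 SUMO array was just above the highest aex-3 SUMO array. The N2 arrays differed little among themselves, with a mean of 127 ± 2.19, beside 78.5 ± 7.17 in myo-4 SUMO and 64.2 ± 2.49 in aex-3 SUMO. The log2 change was -0.68 ± 0.12 (SE) in myo-4 SUMO (adjusted p = 0.000593) and -0.96 ± 0.12 in aex-3 SUMO (adjusted p = 6.72e-05). dpy-7 and dpy-8 were the pair of member probe sets with the most similar profiles, differing by 0.163 on average over the 9 arrays after each profile was centred on its mean (log2).

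**Figure D1:**
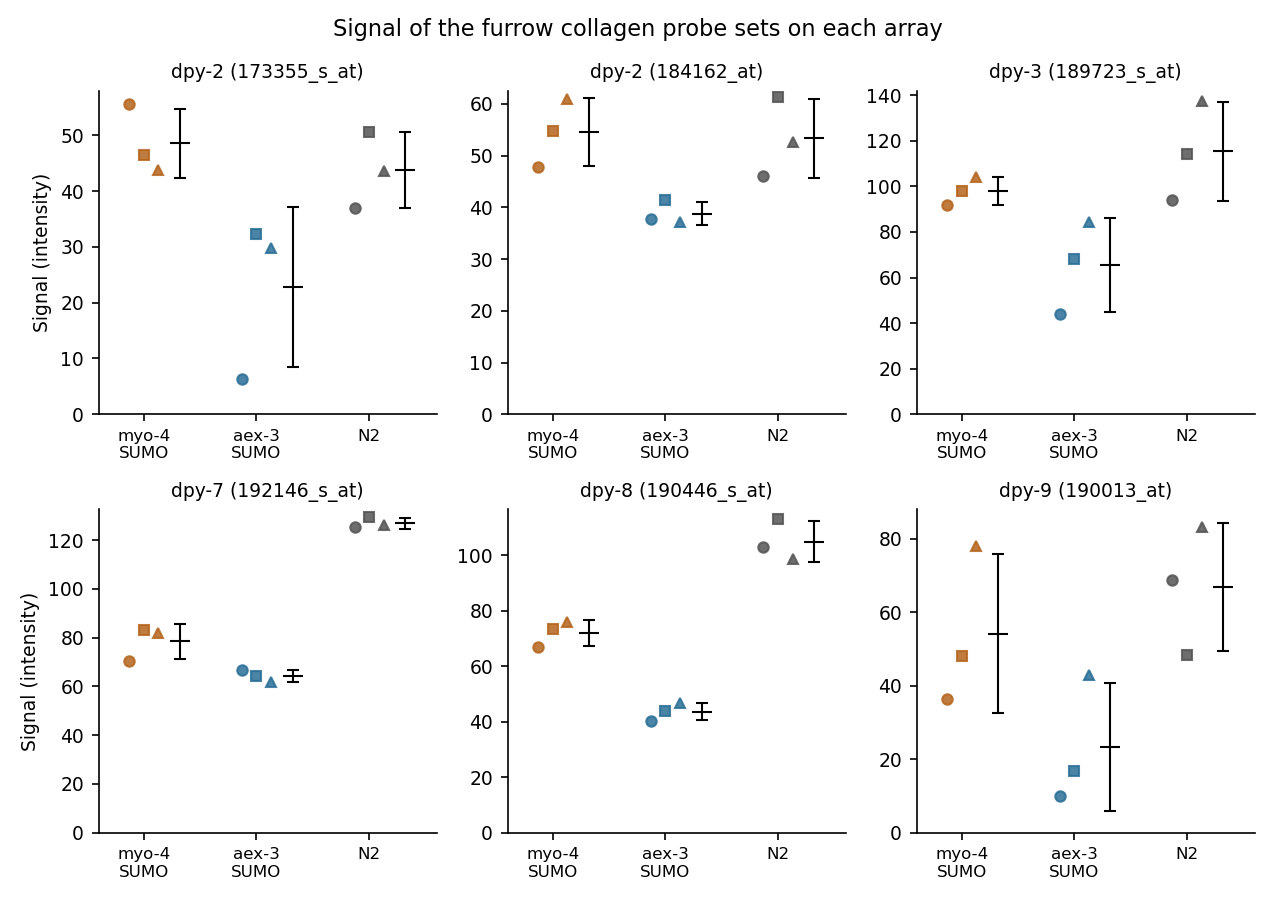
Signal (linear intensity, axis from 0) of the 6 furrow collagen probe sets on each array, in the order myo-4 SUMO, aex-3 SUMO and N2. Circles, squares and triangles are replicates 1, 2 and 3, and the bar beside them is the mean with its SD (n = 3). The aex-3 SUMO points lie below all N2 points in each of the 6 panels, while the myo-4 SUMO points lie below all N2 points for dpy-7 and dpy-8.

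dpy-3 fell in aex-3 SUMO. Its probe set 189723_s_at read 91.7, 98.0 and 104.005 in myo-4 SUMO, 43.8, 67.9 and 84.6 in aex-3 SUMO and 94.1, 114 and 137 in N2. The aex-3 SUMO arrays lay below all others, whereas the myo-4 SUMO and N2 arrays overlapped. The mean was 97.9 ± 6.16 in myo-4 SUMO, 65.4 ± 20.5 in aex-3 SUMO and 115 ± 21.6 in N2. The log2 change was -0.83 ± 0.21 (SE) in aex-3 SUMO (adjusted p = 0.0054). In myo-4 SUMO it was -0.22, with a 95% interval of -0.66 to 0.23 (adjusted p = 0.407), so a change of either sign remained possible.

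dpy-9 had the largest decrease of the members in aex-3 SUMO and a wide spread between arrays. Its probe set 190013_at read 36.4, 48.0 and 78.2 in myo-4 SUMO, 10.1, 16.8 and 43.0 in aex-3 SUMO and 68.8, 48.5 and 83.1 in N2. The highest aex-3 SUMO array was below the lowest N2 array but above the lowest myo-4 SUMO array. The mean was 54.2 ± 21.6 in myo-4 SUMO, 23.3 ± 17.4 in aex-3 SUMO and 66.8 ± 17.4 in N2. The log2 change was -1.65 ± 0.40 (SE) in aex-3 SUMO (adjusted p = 0.00496), with an interval of -2.52 to -0.79. In myo-4 SUMO it was -0.33, with an interval of -1.20 to 0.54 (adjusted p = 0.524). On aex-3 SUMO replicate 1 the signal was under the level used by the filter, which it passed on the other 8 arrays.

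dpy-2 was measured by 2 probe sets, and both were lower in aex-3 SUMO, by different amounts. Probe set 173355_s_at read 55.6, 46.4 and 43.8 in myo-4 SUMO, 6.24, 32.3 and 29.8 in aex-3 SUMO and 36.9, 50.5 and 43.7 in N2. Probe set 184162_at read 47.9, 54.7 and 60.9 in myo-4 SUMO, 37.7, 41.4 and 37.2 in aex-3 SUMO and 46.2, 61.3 and 52.6 in N2. In both, the aex-3 SUMO arrays lay below all N2 arrays and the myo-4 SUMO arrays overlapped with N2, but replicate 1 of aex-3 SUMO was far below its group in the first probe set only.

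The log2 change in aex-3 SUMO was -1.15 ± 0.41 (SE, adjusted p = 0.0366) for 173355_s_at and -0.44 ± 0.15 (adjusted p = 0.0275) for 184162_at. These were the least certain calls among the members. Without aex-3 SUMO replicate 1 the values were -0.46 (adjusted p = 0.0655) and -0.42 (adjusted p = 0.0779). Without N2 replicate 2 they were -1.04 (adjusted p = 0.0993) and -0.33 (adjusted p = 0.101). The call of 173355_s_at was also lost without N2 replicate 3 (adjusted p = 0.0768) and without myo-4 SUMO replicate 1 (adjusted p = 0.0513), and that of 184162_at without aex-3 SUMO replicate 3 (adjusted p = 0.0818). In myo-4 SUMO the changes of dpy-2 were 0.15 (adjusted p = 0.785, interval -0.75 to 1.05) and 0.03 (adjusted p = 0.873, interval -0.29 to 0.35). The direction of the second turned to -0.06 without N2 replicate 1 and to -0.05 without myo-4 SUMO replicate 3.

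For dpy-10 no value can be given. T14B4.19, which lies outside the rule for named genes, overlaps dpy-10 in the annotation and lies between it and dpy-2, and 2 probe sets carry its name. They cannot be taken as dpy-10, because which strand and exons their probes match is not known here. Probe set 175025_at read 97.5, 97.3 and 82.9 in myo-4 SUMO, 58.5, 65.2 and 65.7 in aex-3 SUMO and 98.7, 84.8 and 89.3 in N2. It fell by 0.51 on the log2 scale in aex-3 SUMO (adjusted p = 0.00471, and 0.0802 after centring each array on its median) and differed by 0.02 in myo-4 SUMO (adjusted p = 0.886). Probe set 188200_at differed by -0.40 in aex-3 SUMO (adjusted p = 0.069) and by -0.05 in myo-4 SUMO, and its groups overlapped.

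Counted over the members, 2 of 6 probe sets were called lower in myo-4 SUMO than in N2, where 20.3% of all tested probe sets were called lower. In aex-3 SUMO 6 of 6 were called lower than in N2, where the share over all probe sets was 24%. No member was called higher in either comparison. The median change of the members was -0.27 in myo-4 SUMO, beside 0.0039 over all tested probe sets, and -1.06 in aex-3 SUMO, beside -0.037 over all. Both comparisons use the same N2 arrays, so they are not independent.

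Whether the arrays of 2 groups overlap was also counted. In myo-4 SUMO, 2 of 6 probe sets had all arrays below all N2 arrays, a pattern shown by 25.3% of tested probe sets. In aex-3 SUMO this held for 6 of 6, against 29% of all. For dpy-9, 1.14% of tested probe sets had a lower change in aex-3 SUMO. That share was 3.63% for dpy-8, 7.25% for dpy-7, 9.89% for dpy-3, 4.55% for dpy-2 by 173355_s_at and 24.9% for dpy-2 by 184162_at.

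The order of the changes in aex-3 SUMO was dpy-9, dpy-8, dpy-2 by 173355_s_at, dpy-7, dpy-3 and dpy-2 by 184162_at. The 95% intervals of neighbours in this order overlapped. The 2 tightest estimates, for dpy-8 (-1.50 to -0.97) and dpy-7 (-1.22 to -0.71), also overlapped. The interval of dpy-2 by 184162_at, -0.76 to -0.12, lay above that of dpy-8.

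**Figure D2:**
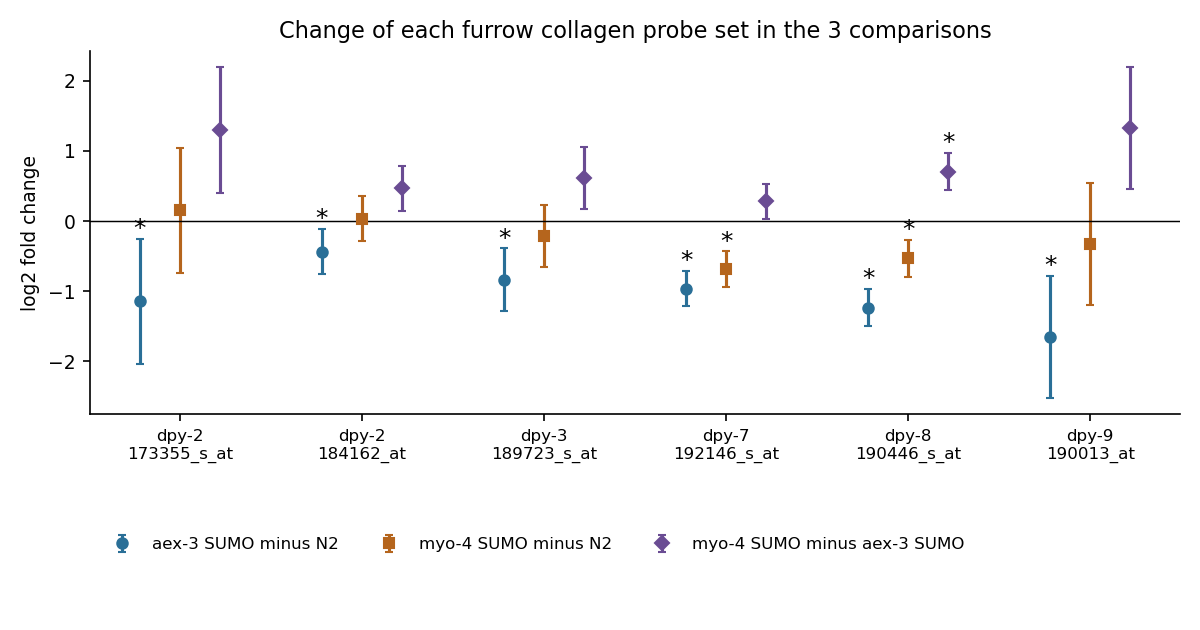
Change (log2 fold change, points) of the 6 probe sets in each of the 3 comparisons, with 95% intervals from the limma fit. A star marks an adjusted p under 0.05 over all 14204 probe sets. All 6 changes in aex-3 SUMO are below 0, between -1.65 and -0.44, and all 6 differences of myo-4 SUMO from aex-3 SUMO are above 0.

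The direct comparison of the transgenic lines asks whether the furrow collagens differed between myo-4 SUMO and aex-3 SUMO. With 1 line per transgene, promoter and line cannot be told apart. All 6 probe sets had a higher mean in myo-4 SUMO than in aex-3 SUMO, and 1 of them, dpy-8, passed the test, where 0.183% of all tested probe sets were called higher. dpy-8 differed by 0.70 ± 0.12 (SE, adjusted p = 0.0336), with an interval of 0.44 to 0.97 and no overlap between the groups. This call was narrow: it was lost when any 1 array of either line was left out, with adjusted p-values of 0.23 without aex-3 SUMO replicate 1, 0.0994 without replicate 2 and 0.0798 without replicate 3. Without myo-4 SUMO replicates 1, 2 and 3 in turn the adjusted p-values were 0.0833, 0.236 and 0.122. The difference itself stayed between 0.65 and 0.76 in these fits. It was also lost with the replicate number as a block (adjusted p = 0.0661), and under quantile normalization (0.0943) and median centring (0.0646).

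The other differences between the lines were 1.32 for dpy-9 (adjusted p = 0.268, interval 0.46 to 2.19), 1.30 and 0.47 for the dpy-2 probe sets (adjusted p = 0.313 and 0.306), 0.62 for dpy-3 (adjusted p = 0.356) and 0.28 for dpy-7 (adjusted p = 0.502). Without aex-3 SUMO replicate 3, dpy-9 was called, at 1.86 (adjusted p = 0.0468). Before adjustment all 6 had p under 0.05, where 5.78% of tested probe sets had such a p with a higher signal in myo-4 SUMO. In 5 of 6 every myo-4 SUMO array was above every aex-3 SUMO array, against 12.6% of all, with dpy-9 the exception. The median difference was 0.66, beside 0.019 over all tested probe sets. Without aex-3 SUMO replicate 1, the array on which the members were lowest, the median was 0.53.

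The members did not all vary from array to array in the same way. Averaged over the 6 centred profiles, the lowest array was aex-3 SUMO replicate 1 (-1.08, log2) and the highest was N2 replicate 3 (0.52). This average rose from replicate 1 to 3 in each group. It was 0.04, 0.17 and 0.31 in myo-4 SUMO, -1.08, -0.49 and -0.26 in aex-3 SUMO and 0.33, 0.46 and 0.52 in N2. Not every probe set followed that order. dpy-3 and dpy-9 had their highest signal on replicate 3 in each group. dpy-7 and dpy-8 lay at most 0.153 from their group mean on any array, whereas dpy-9 on aex-3 SUMO replicate 3 was 1.07 above and dpy-2 by 173355_s_at on aex-3 SUMO replicate 1 was 1.37 below. The mean absolute difference from the members' average profile was smallest for dpy-3 (0.106) and largest for dpy-9 (0.421). The 2 probe sets of dpy-2 differed from each other by 0.41, more than dpy-7 differed from dpy-8.

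Removing aex-3 SUMO replicate 1 brought the members' median change in aex-3 SUMO to -0.78. The calls of dpy-3, dpy-7, dpy-8 and dpy-9 against N2 in aex-3 SUMO, and those of dpy-7 and dpy-8 in myo-4 SUMO, held in all 18 alternatives that were run. The number of members called was 4 to 6 in aex-3 SUMO and 2 in myo-4 SUMO throughout. 4 of the 6 probe sets have names ending in _s_at, which in this design marks probes that can match several transcripts, and collagens form a large family. Signal from related genes in the probe sets of dpy-3, dpy-7, dpy-8 and the first of dpy-2 was not tested.

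**Figure D3:**
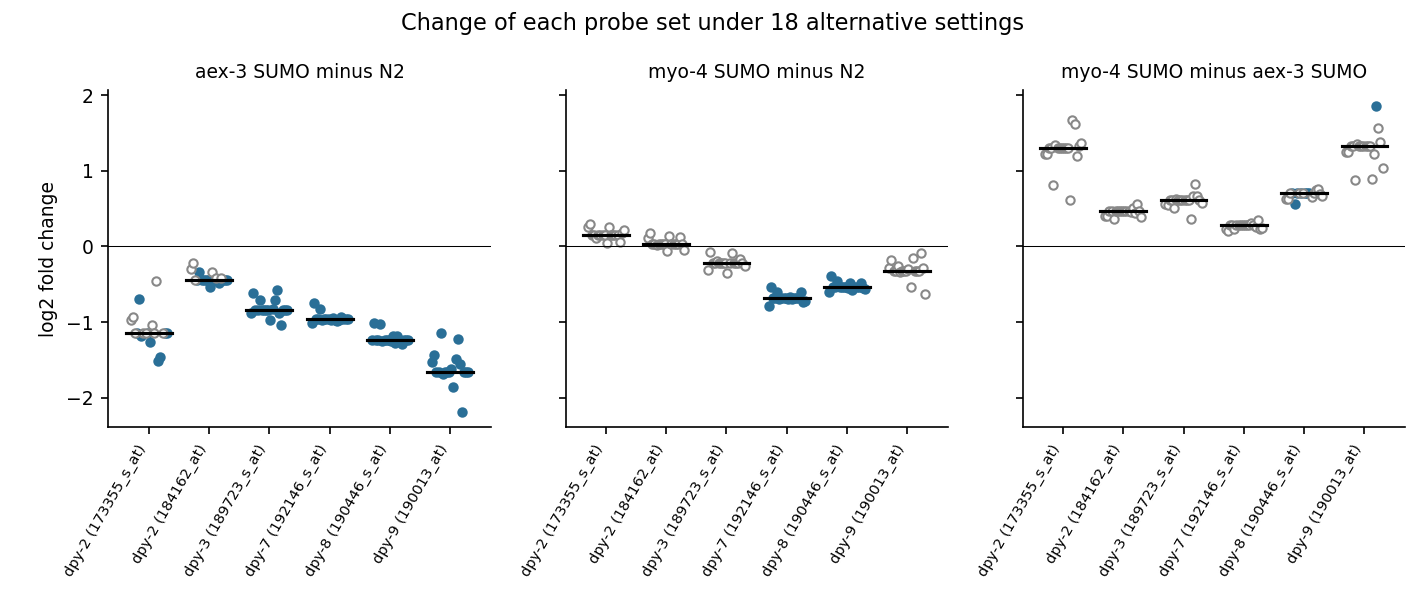
Change (log2 fold change) of each probe set under the 18 alternative settings, with 1 point per setting and a line at the reported value. Filled points have an adjusted p under 0.05 and open points do not. dpy-3, dpy-7, dpy-8 and dpy-9 stay filled throughout in aex-3 SUMO, while both dpy-2 probe sets have open points.

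Among the 10767 genes tested with 1 probe set each, the profiles most like the members' average over the 9 arrays were those of F44E2.4 (mean absolute difference 0.12), col-63 (0.13), F53H4.6 (0.134), F23H12.5 (0.144) and clec-180 (0.146). The median over all genes was 0.445. col-63 is a member of the cuticle collagen family and clec-180 carries a C-type lectin domain. F44E2.4 read 87.1, 91.8 and 84.0 in myo-4 SUMO, 43.7, 69.5 and 59.6 in aex-3 SUMO and 97.2, 113 and 120 in N2. All 5 were called lower in aex-3 SUMO than in N2, which follows from how they were chosen.

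The furrow collagens stood among many collagens that were lower in the transgenic lines. Of 12 tested collagens that set body shape or cause blisters when mutated, 7 fell in myo-4 SUMO and 9 fell in aex-3 SUMO, and none rose. Their median change was -0.54 in myo-4 SUMO and -0.92 in aex-3 SUMO. rol-6, whose mutants roll, averaged 203 ± 33.6 in myo-4 SUMO, 128 ± 20.9 in aex-3 SUMO and 404 ± 19.1 in N2, with changes of -1.003 (adjusted p = 0.00023) and -1.66 (adjusted p = 1.24e-05). dpy-5, another dumpy gene, changed by -0.97 and -1.45 in the same order, and sqt-1 by -0.60 and -0.94, all called. dpy-13 was not called in either line (-0.18 and -0.16), nor was sqt-3 by its brightest probe set (-0.29 and -0.25), although its other probe set 174910_at was called in both (-0.53 and -0.78). The group means of the uncalled probe sets were 6305 to 7127 for dpy-13 and 5239 to 6441 for sqt-3. The highest signal on an array was 5777 to 9645, and whether signals this bright show a change in full was not tested.

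Of 100 tested genes of the col family, which holds most cuticle collagens, 43 fell and 7 rose in myo-4 SUMO, and 54 fell and 7 rose in aex-3 SUMO, with medians of -0.40 and -0.63. Over all 10767 genes 21.1% were lower and 24.2% higher in myo-4 SUMO, and 24.7% lower and 24.6% higher in aex-3 SUMO, with medians of -0.0047 and -0.044. These shares are also the background for the counts of the gene and marker lists below. Scaling moved the col family, with 13 higher and 50 lower in aex-3 SUMO under quantile normalization and 12 and 45 after median centring. In myo-4 SUMO the numbers were 15 and 38 under quantile normalization and 9 and 32 after median centring, and 4 rose without myo-4 SUMO replicate 2. col-12 was lower by 0.54 in myo-4 SUMO and by 0.50 in aex-3 SUMO (adjusted p = 0.00265 and 0.00386). Its call in aex-3 SUMO was lost after median centring (-0.28, adjusted p = 0.0829).

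All 117 tested collagen genes were ranked from the lowest change in aex-3 SUMO, each by its brightest probe set. dpy-9 was number 9, dpy-8 number 21, dpy-7 number 35, dpy-3 number 49 and dpy-2, by 184162_at, number 74. In the difference between the lines, ranked the same way, dpy-9 was number 115 of 117. There dpy-8 was number 106, dpy-3 number 101, dpy-2 number 93 and dpy-7 number 77. The other dpy-2 probe set, 173355_s_at, was not ranked, so the place of dpy-2 depends on the probe set used. Its change in aex-3 SUMO was -1.15, between those of dpy-8 (-1.24) and dpy-7 (-0.96). Its difference between the lines was 1.30, beside 1.32 for dpy-9 and 0.47 for 184162_at. The median difference between the lines was 0.32 for the body shape collagens, of which none was called, and 0.12 for the col family. 3 col genes were called higher in myo-4 SUMO (col-14, col-48 and col-130), and 0 to 7 were when 1 array was left out.

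**Figure D4:**
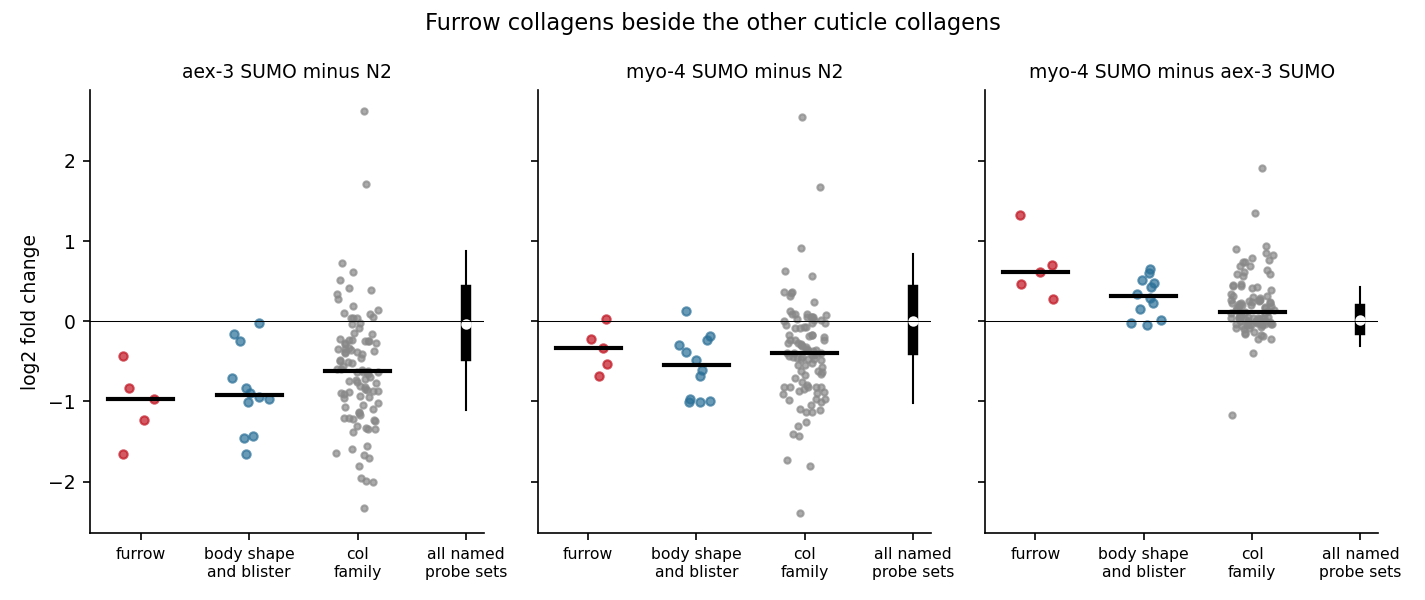
Change (log2 fold change) of the furrow collagens, the body shape and blister collagens and the col family, 1 point per gene with the median as a line, in the 3 comparisons. The thick bar for all named probe sets spans the interquartile range of the changes, the thin line the 5th to the 95th percentile, and the white dot is the median. Most points of the 3 collagen groups lie below 0 in both comparisons with N2, and the furrow collagens lie above 0 between the lines.

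Few genes that modify or secrete collagen fell. Of 15 such genes, 4 rose and 0 fell in myo-4 SUMO (median 0.15), and 3 rose and 1 fell in aex-3 SUMO (median 0.03). The shares over all genes tested were 24.2% higher and 21.1% lower in myo-4 SUMO, and 24.6% higher and 24.7% lower in aex-3 SUMO. tmem-131, tmem-39 and skpo-1 rose in both lines, dpy-18 rose in myo-4 SUMO and mlt-7 fell in aex-3 SUMO. skpo-1 lost its call in myo-4 SUMO without myo-4 SUMO replicate 1 (adjusted p = 0.062). tmem-131, needed for collagen secretion, averaged 301 ± 36.8 in myo-4 SUMO, 334 ± 25.9 in aex-3 SUMO and 201 ± 12.95 in N2, and rose by 0.57 and 0.73 on the log2 scale. These values are from its brightest probe set, 194266_x_at. Its probe set 173181_s_at rose by 0.36 and 0.33, and 179935_at was not called in either line (0.17 and 0.23). dpy-18, the catalytic subunit of a prolyl 4-hydroxylase, changed by 0.40 in myo-4 SUMO (adjusted p = 0.0249) and by 0.03 in aex-3 SUMO (adjusted p = 0.861). The call of dpy-18 was lost under quantile normalization (0.28, adjusted p = 0.123), without N2 replicate 3 (0.32, adjusted p = 0.073), without myo-4 SUMO replicate 1 (0.42, 0.0534) and without myo-4 SUMO replicate 2 (0.35, 0.0969). bli-4 and dpy-31, proteases that trim procollagens, were not called in either line by their brightest probe sets, with changes of 0.29 and 0.26 in myo-4 SUMO and 0.13 and 0.32 in aex-3 SUMO. Of the other bli-4 probe sets, 175669_at was called higher in both lines (1.06 and 1.12). The number of these genes that rose varied with the arrays and the scaling, from 1 to 6 in myo-4 SUMO (1 without its replicate 1, 2 without its replicate 2 or N2 replicate 3, and 6 after median centring) and from 2 to 5 in aex-3 SUMO (2 without its replicate 2 and 5 without N2 replicate 1). Under quantile normalization 2 fell in myo-4 SUMO.

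Of 15 genes of the precuticle and of moulting, 4 fell in myo-4 SUMO (lrp-1, mlt-8, mlt-9 and mlt-11, list median -0.17) and 9 fell in aex-3 SUMO (median -0.53), and none rose. mlt-8, a gene needed for moulting, averaged 163 ± 25.3 in myo-4 SUMO, 103.9 ± 16.04 in aex-3 SUMO and 261 ± 49.7 in N2, and fell by 0.67 and 1.31. noah-1, a zona pellucida protein of the apical matrix, changed by -0.13 in myo-4 SUMO (adjusted p = 0.475) and by -0.53 in aex-3 SUMO (adjusted p = 0.00822, and 0.0858 after median centring). The count in myo-4 SUMO was 2 without N2 replicate 2, without myo-4 SUMO replicate 1 and after median centring. In that line 1 rose under quantile normalization and 1 after median centring.

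Over all genes tested, 24.2% rose in myo-4 SUMO and 24.7% fell in aex-3 SUMO. Of 11 tested transcription factors of the epidermis and of moulting, 2 rose in myo-4 SUMO (lin-26 and nhr-23, list median -0.22). In aex-3 SUMO 6 fell (median -0.45). The 2 became 1 without any of N2 replicates 2 and 3 and myo-4 SUMO replicates 1 and 3. The 6 were reduced to 3 without aex-3 SUMO replicate 3, to 3 under quantile normalization and to 1 after median centring. bed-3, a moulting cycle regulator, averaged 33.4 ± 7.03 in myo-4 SUMO, 16.6 ± 5.71 in aex-3 SUMO and 41.7 ± 3.63 in N2, and fell by 1.30 in aex-3 SUMO (adjusted p = 0.000917). blmp-1, which acts in epidermal development, changed by -0.30 in myo-4 SUMO (adjusted p = 0.115) and -0.58 in aex-3 SUMO (adjusted p = 0.00692, and 0.056 after median centring). elt-1, the GATA factor that specifies epidermis, was not called (0.05 and -0.10). elt-3 and nhr-23 each had probe sets that disagreed in their calls.

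The osmotic response list holds genes that are switched on in furrow mutants and genes whose loss turns that response on. It also holds ptr-23, wnk-1 and gck-3, which are in neither class, so its median mixes genes of different roles. Of its 8 tested genes, 2 rose (gpdh-1 and hmit-1.1) and 1 fell (ptr-23) in myo-4 SUMO, with a median of -0.10. In aex-3 SUMO gpdh-1 rose and 3 fell (ptr-23, osm-8 and osm-7), with a median of -0.23. Over all genes tested, 24.2% rose and 21.1% fell in myo-4 SUMO, and 24.6% rose and 24.7% fell in aex-3 SUMO. gpdh-1, which makes glycerol under osmotic stress, read 185, 159 and 116 in myo-4 SUMO, 97.3, 120 and 107 in aex-3 SUMO and 36.98, 99.3 and 48.8 in N2. The myo-4 SUMO arrays lay above all N2 arrays, while 1 aex-3 SUMO array was below the highest N2 array. It rose by 1.39 in myo-4 SUMO (adjusted p = 0.00181) and by 0.91 in aex-3 SUMO (adjusted p = 0.0173). The call in aex-3 SUMO was lost without N2 replicate 1 (0.61, adjusted p = 0.0569), N2 replicate 3 (0.81, 0.0581) or aex-3 SUMO replicate 2 (0.83, 0.0575).

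hmit-1.1, an osmotically induced inositol transporter, read 356, 462 and 332 in myo-4 SUMO, 230, 313 and 239 in aex-3 SUMO and 136, 328 and 224 in N2. It was called higher in myo-4 SUMO, by 0.81 (adjusted p = 0.0192), and not in aex-3 SUMO (0.26, adjusted p = 0.405), but between the lines the difference was 0.55 (adjusted p = 0.56). The call was lost without myo-4 SUMO replicate 2 (0.67, adjusted p = 0.0797), and the value was 0.48 without N2 replicate 1. osm-8 and osm-7 are genes whose loss turns on the osmotic response. They changed by -0.54 and -0.16 in myo-4 SUMO and by -1.45 and -0.84 in aex-3 SUMO. For ptr-23 the change was -0.92 in myo-4 SUMO and -1.16 in aex-3 SUMO. ptr-23 was called in both lines (adjusted p = 0.000151 and 3.9e-05), osm-8 and osm-7 in aex-3 SUMO (adjusted p = 0.00127 and 0.000562).

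gst-4, a glutathione S-transferase and target of SKN-1, read 203, 212 and 159 in myo-4 SUMO, 206, 213 and 210 in aex-3 SUMO and 70.9, 176 and 108 in N2. The aex-3 SUMO arrays lay above all N2 arrays, and the groups of myo-4 SUMO and N2 overlapped. It rose by 0.77 in myo-4 SUMO (adjusted p = 0.0209) and by 0.91 in aex-3 SUMO (adjusted p = 0.00799). Without N2 replicate 1 the values were 0.45 (adjusted p = 0.0524) and 0.60. The call in myo-4 SUMO was also lost without N2 replicate 3 (adjusted p = 0.0504) and without myo-4 SUMO replicates 1 (0.0728) or 2 (0.072). Of 8 SKN-1 genes 3 rose in each line (gst-4, gst-7 and skn-1 by its brightest probe set) and none fell, with medians of 0.29 in myo-4 SUMO and 0.39 in aex-3 SUMO, and 0 were called in myo-4 SUMO without its replicate 1 or 2. Under quantile normalization 1 was called in myo-4 SUMO, where gst-4 and skn-1 lost their calls (adjusted p = 0.0607 and 0.088), and after median centring 5 were called in aex-3 SUMO.

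nlp-29, the antimicrobial peptide gene used to report epidermal damage, was not called. It read 231, 233 and 180 in myo-4 SUMO, 171, 194 and 163 in aex-3 SUMO and 168, 162 and 200 in N2, and the 3 groups overlapped. Its change was 0.27 in myo-4 SUMO (adjusted p = 0.119) and 0.00 in aex-3 SUMO (adjusted p = 0.983). Of 8 tested peptide genes, 0 rose and 2 fell (cnc-4 and cnc-8, median -0.33) in myo-4 SUMO, and nlp-27 rose and 3 fell (cnc-8, nlp-28 and nlp-30, median -0.44) in aex-3 SUMO. The 3 became 0 after median centring (nlp-28 at -0.30, adjusted p = 0.171, and cnc-8 at -0.16, adjusted p = 0.262), 0 without aex-3 SUMO replicate 1, 1 without aex-3 SUMO replicate 3 and 5 without N2 replicate 1, and the 2 became 1 after median centring, without N2 replicate 3 or without myo-4 SUMO replicates 1 or 3. Of 11 genes that signal to these peptides, 8 fell in each line, with medians of -0.60 in myo-4 SUMO and -0.81 in aex-3 SUMO. dcar-1, a receptor in that pathway, fell by 0.96 in myo-4 SUMO and by 0.98 in aex-3 SUMO by its brightest probe set. Its other probe set, 173161_at, was called lower in myo-4 SUMO (-0.58) but not in aex-3 SUMO (-0.27, adjusted p = 0.153). The count in myo-4 SUMO was 5 without N2 replicate 3 and after median centring.

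**Figure D5:**
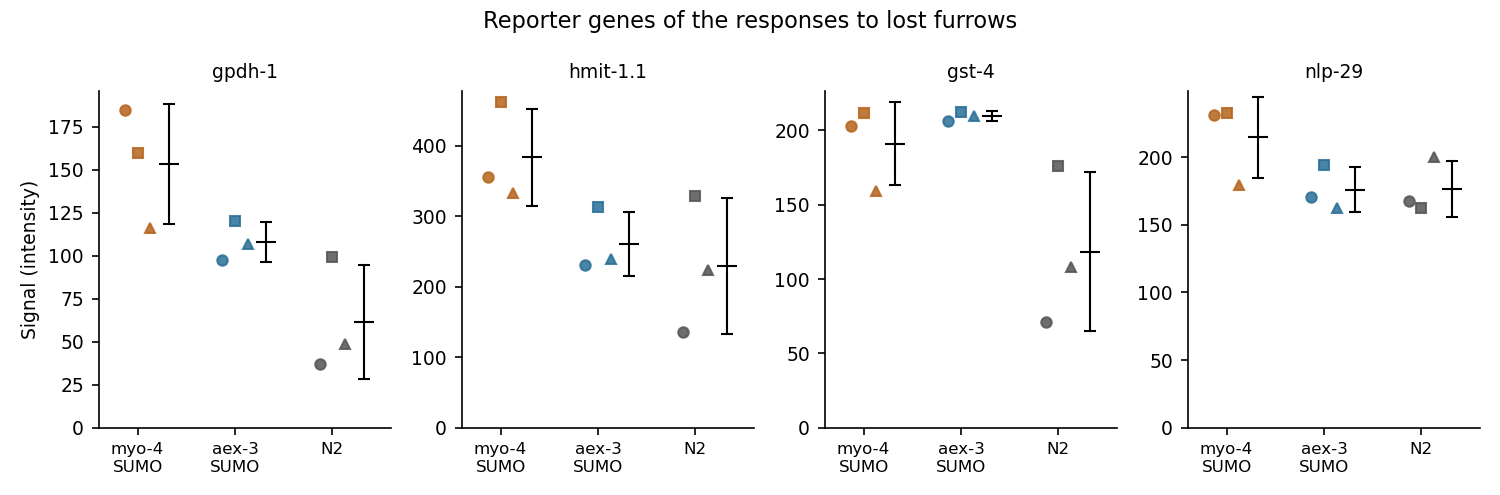
Signal (linear intensity, axis from 0) of gpdh-1, hmit-1.1, gst-4 and nlp-29 on each array, in the order myo-4 SUMO, aex-3 SUMO and N2, with circles, squares and triangles for replicates 1, 2 and 3 and the mean with its SD (n = 3). The gpdh-1 mean is 153 in myo-4 SUMO, 108 in aex-3 SUMO and 61.7 in N2, whereas nlp-29 overlaps in all groups.

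Markers of other cells and stages also differed between the transgenic lines and N2. Among 7 tested genes of epidermal junctions and attachments, 3 fell in both lines (ajm-1, che-14 and dlg-1). Summed over the 8 list genes on the array, the signal was 1508 to 1632 in myo-4 SUMO and 1430 to 1468 in aex-3 SUMO. In N2 this sum was 1588 to 1797. Of 12 oocyte and eggshell genes, 11 rose in each line, with medians of 1.06 in myo-4 SUMO and 0.96 in aex-3 SUMO and summed signals of 14716 to 16822 in myo-4 SUMO, 15109 to 16172 in aex-3 SUMO, with 7366 to 12076 in N2. These oocyte genes, and 23 sperm genes whose median rank was above 99% of probe sets on every array, are bright for animals labelled L1 larvae. Of 3 adult cuticle collagens, 1 fell in myo-4 SUMO and 2 in aex-3 SUMO. Intestinal markers fell at 6 of 7 genes in both lines, with medians of -0.99 in myo-4 SUMO and -1.01 in aex-3 SUMO and sums of 5358 to 7293 in myo-4 SUMO, 5856 to 6754 in aex-3 SUMO, with 11062 to 13322 in N2. The oocyte and intestinal medians were close in the lines. The adult cuticle median was -0.23 in myo-4 SUMO and -0.84 in aex-3 SUMO. Both medians are the values of bli-1 by 174152_s_at, which was not called between the lines (adjusted p = 0.43). The median difference between the lines over the 3 genes was 0.016, with 0 called. The other bli-1 probe set, 190348_at, was called lower in both lines (-0.84 and -1.21). No marker of the lists here and below was at 0 on any array, but this does not show that each was detected. The lowest signal was 0.394 for neuronal, 0.442 for embryo, 0.621 for pharynx and 1.46 for epidermal markers. In the other marker lists it was 13.2 or higher. The part that stage or tissue makeup had in the furrow collagen changes was not tested.

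The remaining marker lists were smaller or moved with the setting. Of 4 tested embryo genes, 3 rose in both lines and end-1 fell in aex-3 SUMO, a call lost under quantile normalization and median centring and without N2 replicate 1 or aex-3 SUMO replicate 2. Yolk genes rose at 3 of 5 in myo-4 SUMO and 4 of 5 in aex-3 SUMO, neuronal genes fell at 4 of 7 and 6 of 7, and muscle genes fell at 5 of 8 in each line, while unc-22 rose in both. Pharynx genes rose at 2 of 7 and fell at 1 of 7 in myo-4 SUMO, and rose and fell at 1 of 7 each in aex-3 SUMO, with counts between 0 and 2 over the alternatives. Sperm genes fell at 4 of 23 in each line, and msp-32 rose in aex-3 SUMO. Under quantile normalization 0 fell in either line and 3 rose in aex-3 SUMO, and after median centring 0 fell in either line and 2 rose in aex-3 SUMO. The sperm median in aex-3 SUMO was 0.051 under quantile normalization and 0.052 after median centring, against -0.17 as deposited, and that in myo-4 SUMO was 0.0071 and -0.12, against -0.27. The number of sperm genes that fell was 0 in each line without N2 replicate 1, and 16 in myo-4 SUMO and 10 in aex-3 SUMO without N2 replicate 3. It was also 0 in myo-4 SUMO without its replicates 1 or 3, 7 without its replicate 2, and 0 in aex-3 SUMO without any 1 of its arrays or without myo-4 SUMO replicate 3. The yolk count in myo-4 SUMO was 5 under quantile normalization and 1 without N2 replicate 3 or myo-4 SUMO replicate 2. The neuronal count in aex-3 SUMO was 3 after median centring and without aex-3 SUMO replicates 2 or 3, and the muscle count there was 3 after median centring. In myo-4 SUMO the muscle count was 2 after median centring and 3 without N2 replicate 3 or myo-4 SUMO replicates 1 or 3.

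The ratio of 3′ to 5′ signal over 5 worm control genes, a measure of RNA integrity, was 0.275 to 0.405 in myo-4 SUMO, 0.319 to 0.347 in aex-3 SUMO, with 0.331 to 0.537 in N2 (mean log2), and the groups overlapped. Over 3 of these genes (actin, Gapdh and ubiquitin) it was 0.773 to 0.885 in myo-4 SUMO, 0.905 to 0.999 in aex-3 SUMO, with 0.769 to 0.888 in N2. In that mean of 3 the aex-3 SUMO arrays were the highest, but not on each gene alone. Gapdh was highest on N2 replicate 3 and ubiquitin on N2 replicate 1. For actin, aex-3 SUMO replicate 2 (0.48) was below myo-4 SUMO replicate 1 (0.50). The remaining controls, gly14 and catalase, went the other way. For gly14 the aex-3 SUMO arrays had -1.16, -1.38 and -1.29, all below N2, which had -0.52, -0.44 and -1.13. Catalase was 0.02, 0.35 and 0.03 on the aex-3 SUMO arrays, overlapping with N2 at 0.69, 0.41 and 0.12. The part of this ratio in the members' changes was not tested.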

How the data were processed

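The deposited values are linear signal intensities per probe set, which the authors made in GCOS (named without a version in the submitters' processing notes). Settings, genome build and detection calls are not given in the sources used here. The 2% trimmed means of the arrays agreed to within 0.0089%, so the values were used as scaled by the authors.

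The 77 control probe sets were dropped. The log2 of signal + 1.623 was taken, 1.623 being the median of the arrays' 10th percentiles. To be kept (14204), a probe set had to exceed its array's 40th percentile on 3 or more arrays. All 9 arrays entered one limma fit (limma 3.58.1, R 4.3.3; lmFit, eBayes with trend; 6 residual and 6.88 prior degrees of freedom), with Benjamini-Hochberg adjustment over all kept probe sets at 0.05, two-sided. The number of arrays limits the precision.

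Probe sets were named from the platform's annotation: 20766 had 1 gene, 887 several and 895 none. Symbols, chromosomes and neighbours came from RefSeq's WBcel235 table. Lists used the brightest probe set of each gene. The members and lists were chosen with earlier results of these data known. Named genes were the members, smo-1, 18 fixed genes of collagen biology and the furrow response, up to 3 genes with the smallest p per list, and the 5 genes with profiles most like the members. Alternatives were another normalization (quantile or median centring), filter (none or the 60th percentile), pseudocount (16 or 1), eBayes without trend, 2 groups alone, a replicate block and leaving out each array. The fit was tested on simulated data.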

Additional observations from a re-analysis of the deposited data

Results flagged for a closer look

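The change of dpy-8 was called different between the transgenic lines, by a narrow margin. Against the same N2 arrays it was -0.53 in myo-4 SUMO and -1.24 in aex-3 SUMO, and the test of the difference itself gave 0.70 on the log2 scale (adjusted p = 0.0336 over all tested probe sets). All 3 myo-4 SUMO arrays were above all 3 aex-3 SUMO arrays. It was 1 of 34 probe sets called between the lines, and the range of its adjusted p over 18 alternatives was 0.0106 to 0.236. The call was lost in 11 of the 18, among them each fit that left out 1 array of either line.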

How the results depend on the processing

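Over 18 alternatives, dpy-3, dpy-7, dpy-8 and dpy-9 were called lower in aex-3 SUMO, and dpy-7 and dpy-8 lower in myo-4 SUMO, in all of them. The members called in aex-3 SUMO numbered 4 under quantile normalization, median centring and no filter, 5 without trend and with 2 groups only, and 4 to 6 when 1 array was left out. The dpy-2 probe set 173355_s_at lost its call in 9 of 18 alternatives and 184162_at in 6 of 18. In myo-4 SUMO, dpy-2 by 184162_at was 0.03, and -0.064 to 0.13 when 1 array was left out, below 0 without N2 replicate 1 (-0.064) and without myo-4 SUMO replicate 3 (-0.050); the cause was not tested. Between the lines, 0 members were called under quantile normalization, median centring, no filter and no trend, and 0 to 1 when 1 array was left out. The count of all probe sets called between the lines was 34, and became 21 without trend, 246 with 2 groups only, and 10 to 92 when 1 array was left out; the cause was not tested. Median centring moved the median of all probe sets from -0.037 to 0.18 in aex-3 SUMO and from 0.0039 to 0.15 in myo-4 SUMO. The called probe sets were then 5129 higher and 2050 lower in aex-3 SUMO, against 3423 and 3410 as deposited, and 4615 higher and 1980 lower in myo-4 SUMO, against 3411 and 2888. Between the lines they were 18 higher and 12 lower, against 26 and 8. The members' median in aex-3 SUMO was then -0.84, since centring shifts every value of an array alike.

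Over all tested probe sets, replicate numbers did not pair the arrays: correlations of same-numbered deviations were -0.194 to 0.0295. The members' average profile, however, rose from replicate 1 to replicate 3 in each group. With the replicate block 6 members were called in aex-3 SUMO, 2 in myo-4 SUMO and 0 between the lines, and 6464, 5970 and 36 of all probe sets. The signals limit what can be said of dpy-9 and of dpy-2 by 173355_s_at, which were under the filter level on aex-3 SUMO replicate 1.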
